A study of Mus musculus with 18 samples.

Results

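The genes described are those of 2 S-phase cyclins, cyclin E2 (Ccne2) and cyclin A2 (Ccna2), read through 4 of the 24557 rows of the deposited count tables. The rows are those with the symbols Ints8, Exosc9, Ccne2 and Ccna2. Ints8 lies opposite Ccne2 on the other DNA strand and Exosc9 lies opposite Ccna2, and reads appear to have been counted to the strand opposite the transcript, so that the Ints8 and Exosc9 rows may hold cyclin reads. The rows were chosen by their CPM differences in earlier results of these libraries: the Ints8 row stood out between DFMO and vehicle, and the others were taken with it. Differences that guided that choice are given with their standard error and no test.

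E-type cyclins bind and activate the kinase CDK2 late in G1, which promotes the firing of replication origins and entry into S phase. Cyclin A2 pairs with CDK2 during S phase and with CDK1 later, and both genes are classic targets of E2F factors, which the retinoblastoma protein restrains. Polyamines are needed for the growth of mammalian cells, and their depletion is known to slow the cell cycle; primary adult beta cells seldom divide, whereas beta cell lines such as MIN6 proliferate. Ints8 encodes a subunit of Integrator, a complex that cleaves nascent small nuclear RNAs and other transcripts, and Exosc9 encodes a subunit of the RNA exosome, which degrades RNA from its 3′ end.

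MIN6 is a line of transformed mouse beta cells. The 6 groups, each of 3 libraries that the labels call biological replicates, were DENSpm (10 µM) with cytokines, DENSpm alone, DFMO (5 mM) with cytokines, DFMO alone, vehicle with cytokines and vehicle alone, all for 24 h. DENSpm is a spermine analogue that induces polyamine breakdown, DFMO blocks ornithine decarboxylase, the enzyme that makes putrescine, and the cytokine mix held IFN-γ, TNF-α and IL-1β. No genetic change is given for any group, and a single cell line was used. The labels do not say whether replicates came from separate cultures, so each p-value here reflects library-to-library spread, which may be technical. Bulk RNA does not tell fewer cells in S phase from less cyclin RNA per cell.

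Counted reads were few, at 403377 to 639625 counts per library. These totals cover only reads counted to a row and are not the sequencing depth. All 14 beta cell marker rows held counts (1066 to 2730 CPM summed). The rows of 9 markers of blood, vessel, connective tissue, duct and acinar cells held 13 counts in all 18 libraries together. Among them Col1a1, Col3a1, Prss1 and Ptprc were at 0. All these rows were taken by their own symbol and may not hold the reads of the marker genes. The Pcsk2 row held 686 counts, and the Pcsk2os1 row opposite it 141543. The sums therefore do not show which cell types were present. The beta cell marker sum was 1066 to 1315 CPM in DFMO with cytokines, 1793 to 2192 in DFMO, 1163 to 1344 in vehicle with cytokines and 1807 to 2730 in vehicle, and its part in the results was not tested. The library DENSpm replicate 2 was the lowest of its group for all 4 cyclin-locus rows, and the DENSpm results of the 4 rows that it moves are given with and without it.

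Both gene pairs lie tail to tail (GRCm38, the assembly also called mm10). Ccne2 (gene ID 12448) runs on the plus strand at chr4:11191351-11204779, and Ints8 (gene ID 72656) on the minus strand at chr4:11199158-11254258. They share 609 bp of exon in 2 stretches, which make up 17.4% of the exon bases of Ccne2 and 8.15% of those of Ints8. The first stretch, chr4:11199297-11199431, is 135 bp of Ccne2 coding sequence and is exon 9 of the 12 exons of transcript Ccne2-201. The second, chr4:11204110-11204583, is 474 bp long, of which 114 bp code in Ints8, and none codes in Ccne2. Ccna2 (gene ID 12428) runs on the minus strand at chr3:36564865-36572150 and Exosc9 (gene ID 50911) on the plus strand at chr3:36552606-36565727. Their 510 bp of shared exon, chr3:36565218-36565727, hold 156 bp of Exosc9 coding sequence and lie in the non-coding 3′ part of Ccna2. They make up 12.5% of the exon bases of Ccna2 and 10.8% of those of Exosc9. No other annotated gene had exons opposite the exons of these 4 genes.

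The sequence below shows how a spliced Ccne2 message enters the stretch it shares with Ints8. It is the plus strand, 5′ to 3′, from the GENCODE vM21 transcript; lower case marks the end of the exon at chr4:11198810-11198824, which lies outside Ints8, and capitals mark the start of exon 9 at chr4:11199297-11199311, which lies inside an Ints8 exon.
Ccne2-201 junction: ctcaatatattaaagGCTTTAAAATGGGAA

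**Figure D1:**
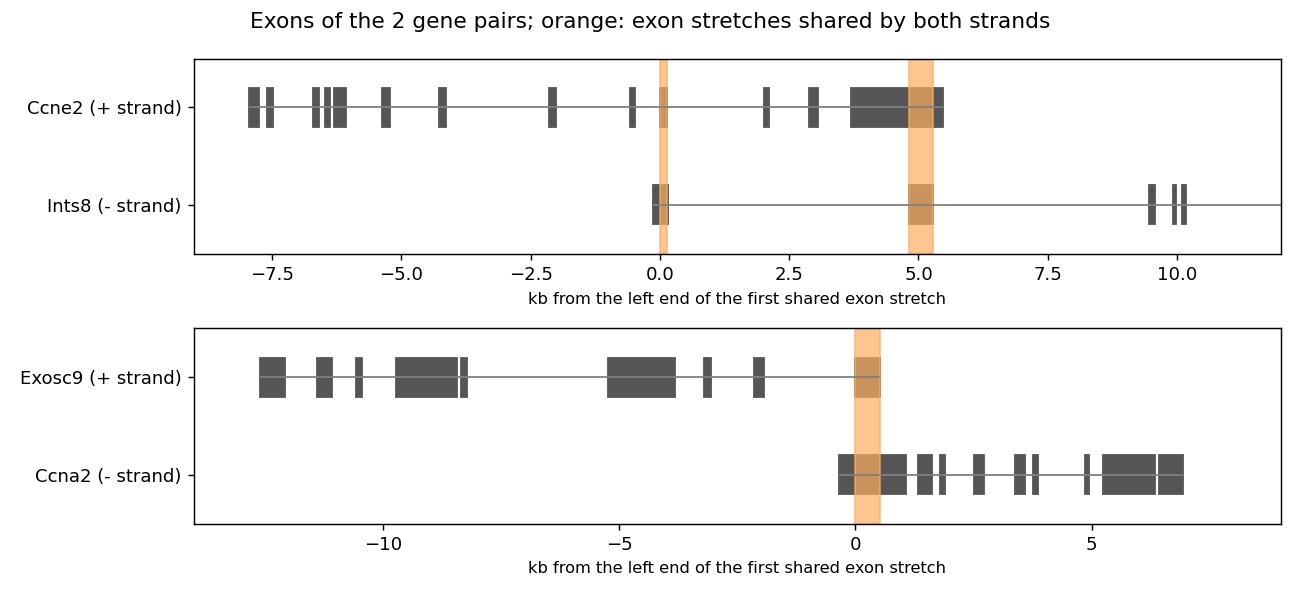
Exons (boxes) of Ccne2 and Ints8 and of Exosc9 and Ccna2 on their strands, with distance in kb from the left end of the first shared exon stretch on the x axis. Orange bands mark the 609 bp and 510 bp of exon shared by both strands; the 5′ part of Ints8 runs beyond the right edge.

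Across the tables, 82.6% of all counts stood in the 5791 of 24557 rows that share exon bases with a gene on the other strand. The Ints8 row ranked 16 by total count, with 58826 counts (0.663% of all counts), and the Exosc9 row ranked 26, with 41386 counts (0.467%). The Ccna2 row held 10165 counts and the Ccne2 row 4786. These are counts not divided by gene length. The strand setting of the counting is not given in the sources used here, and from these counts the reads of a gene and of its opposite partner cannot be told apart in the shared exons. Each row is therefore named by its symbol and the gene opposite it, and no change is ascribed to the one gene or the other. All 4 rows passed the filter on low counts in every fit.

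In DFMO the row opposite Ccne2 stood lower than in vehicle by more than the row opposite Ccna2 did, with and without cytokines. These are the differences that guided the choice of rows. CPM are counts relative to the library total, scaled with the TMM factors of all 18 libraries. The Ints8 row, opposite Ccne2, had 3816, 3740 and 3940 CPM in DFMO, against 10783, 10923 and 12403 CPM in vehicle. The groups did not overlap, and the log2 fold change was −1.55 ± 0.09 (SE). With cytokines the Ints8 row had 1846, 2363 and 1905 CPM in DFMO, against 6359, 6621 and 6470 CPM in vehicle. The 3 DFMO libraries were again all below the 3 vehicle libraries (−1.68 ± 0.09).

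The Exosc9 row, opposite Ccna2, had 4004, 4144 and 4082 CPM in DFMO, against 6516, 6992 and 5771 CPM in vehicle (log2 fold change −0.64 ± 0.09). With cytokines it had 2428, 2502 and 2676 CPM in DFMO, against 4602, 4116 and 4419 CPM in vehicle (−0.80 ± 0.09). Neither pair of groups overlapped. As background, 14.6% of the 3302 rows tested had an adjusted p under 0.05 between DFMO and vehicle, and 11.1% between DFMO and vehicle with cytokines. Groups without overlap and lower in DFMO made up 16.0% of rows without cytokines and 12.4% with them. Since these contrasts guided the choice, nothing is read from the count of rows.

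The rows that carry the cyclin symbols differed less. The Ccne2 row, opposite Ints8, had 501, 530 and 445 CPM in DFMO, against 533, 624 and 530 CPM in vehicle, and its log2 fold change was −0.17 ± 0.14. With cytokines it had 520, 584 and 564 CPM in DFMO, against 538, 636 and 727 CPM in vehicle (−0.19 ± 0.14). Without cytokines the highest DFMO library (529.6 CPM) and the lowest vehicle library (529.9 CPM) were at nearly the same level, and with cytokines the groups overlapped. The Ccna2 row, opposite Exosc9, had 932, 885 and 937 CPM in DFMO, against 1155, 1198 and 1417 CPM in vehicle (−0.44 ± 0.11). With cytokines it had 1130, 1290 and 1303 CPM in DFMO, against 1541, 1581 and 1593 CPM in vehicle (−0.35 ± 0.11). Both Ccna2 comparisons were without overlap.

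**Figure D2:**
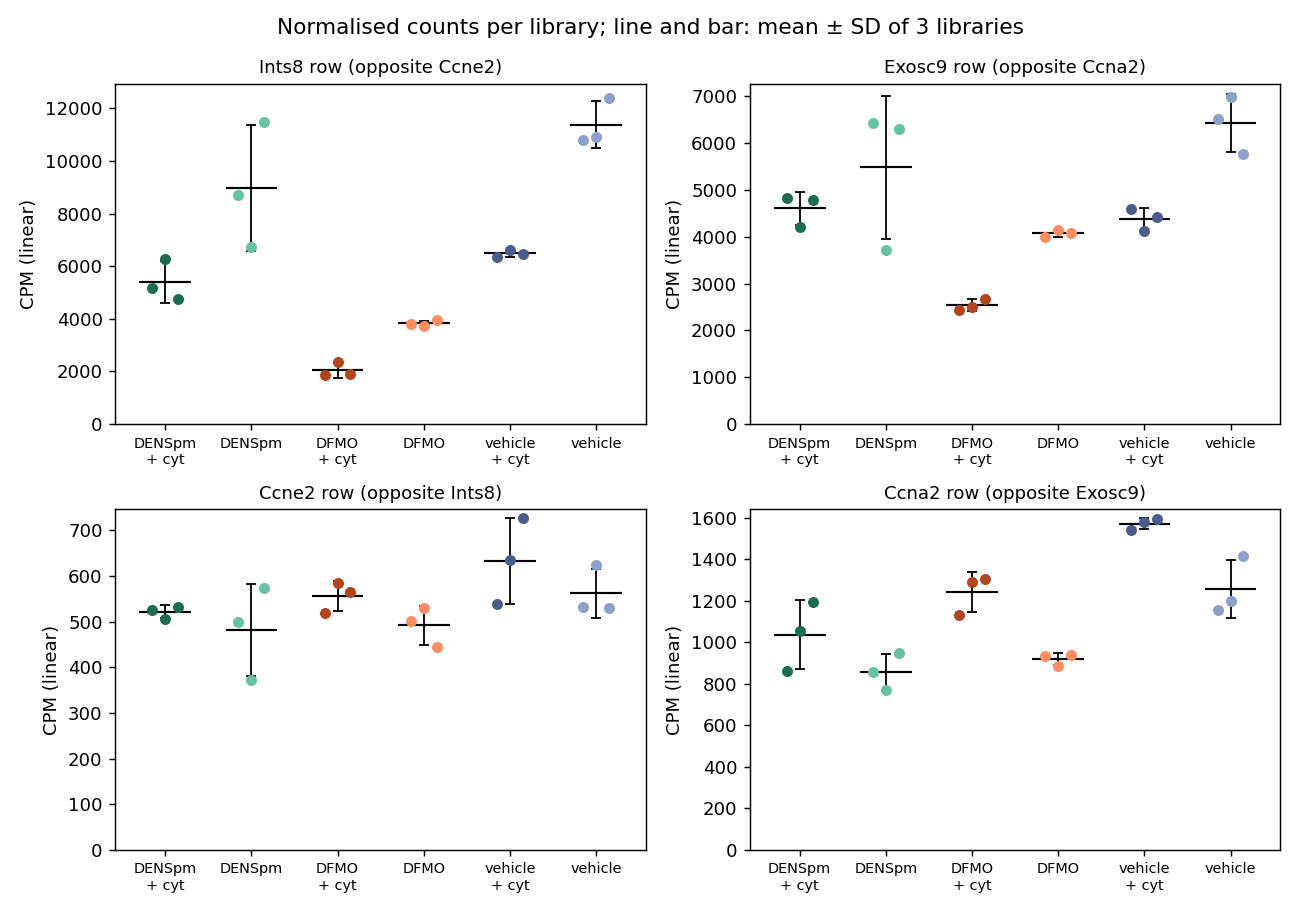
CPM on a linear y axis for each of the 4 rows, with a point per library in the 6 groups; the line is the mean and the bar the SD of 3 libraries, and cyt marks cytokines. The Ints8 row spans 2038 CPM (mean, DFMO with cytokines) to 11370 CPM (mean, vehicle), while the Ccne2 row spans 481 to 633 CPM in its group means.

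The cytokine response was tested in the DFMO-treated and the DENSpm-treated cells, and is described in vehicle, where it was known when the rows were chosen. In vehicle with cytokines the Ints8 row was lower than in vehicle (−0.82 ± 0.09), as was the Exosc9 row (−0.56 ± 0.09), whereas the Ccna2 row was higher (0.31 ± 0.11) and the Ccne2 row stood at 0.17 ± 0.14 on the log2 scale. The library values are those given above. Between these 2 groups 9.90% of rows passed the test.

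In DFMO-treated cells, cytokines changed 3 of the 4 rows, and at the Ccna2 locus the 2 opposite rows moved in opposite directions. Of all rows tested, 13.1% passed, 6.09% lower and 7.03% higher. The Ints8 row, opposite Ccne2, fell by 0.94 ± 0.09 on the log2 scale (adjusted p = 2.78e-11, edgeR quasi-likelihood test with Benjamini-Hochberg adjustment). The Exosc9 row, opposite Ccna2, fell by 0.71 ± 0.09 (adjusted p = 1.18e-08, edgeR). For both rows the 3 libraries with cytokines were below the 3 without, as for 13.9% of all rows. The Ccna2 row, opposite Exosc9, rose by 0.41 ± 0.11 (adjusted p = 0.00888, edgeR), with all 3 libraries with cytokines above all 3 without, as for 14.8% of all rows. This call was lost, at 0.38 with an adjusted p of 0.0531, without replicate 3 of DFMO with cytokines. The Ccne2 row did not pass the test (0.15 ± 0.14, adjusted p = 0.606, edgeR; 95% interval −0.13 to 0.43). This contrast is fixed by 3 differences that were known when the rows were chosen. They are DFMO against vehicle, without and with cytokines, and cytokines in vehicle. These tests are therefore not independent of the choice.

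The DFMO difference with cytokines and that without were set against each other as an interaction in edgeR. Of all rows 0.424% passed (14 of 3302). The difference of the 2 log2 fold changes was −0.12 ± 0.13 for the Ints8 row (adjusted p = 0.893, edgeR; 95% interval −0.38 to 0.13) and −0.16 ± 0.12 for the Exosc9 row (adjusted p = 0.834, edgeR; 95% interval −0.40 to 0.08). For the Ccna2 row it was 0.09 ± 0.16 (adjusted p = 0.949, edgeR) and for the Ccne2 row −0.02 ± 0.20 (adjusted p = 0.987, edgeR). A p above the threshold does not show that the effects were alike. Both DFMO differences guided the choice of rows, so the interaction tests are not independent of it.

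Between DENSpm and vehicle the Ints8 row showed no change that passed the test, and the Ccna2 row passed with cytokines and narrowly missed without, at similar fold changes. All DENSpm tests against vehicle share their vehicle libraries with the DFMO comparisons. The Ints8 row, opposite Ccne2, had 8699, 6728 and 11492 CPM in DENSpm, against 10783, 10923 and 12403 CPM in vehicle. The groups overlapped, and the log2 fold change was −0.34 ± 0.15 (adjusted p = 0.350, edgeR; 95% interval −0.62 to −0.05). Without DENSpm replicate 2 it was −0.17 ± 0.13 (adjusted p = 0.705, edgeR). The Exosc9 row, opposite Ccna2, had 6428, 3722 and 6302 CPM in DENSpm, against 6516, 6992 and 5771 CPM in vehicle. Replicate 2 stood well below the other 2 DENSpm libraries, and the log2 fold change was −0.22 ± 0.15 (adjusted p = 0.610, edgeR) with it and −0.01 ± 0.12 (adjusted p = 0.990, edgeR) without it.

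The Ccna2 row, opposite Exosc9, had 857, 768 and 946 CPM in DENSpm, against 1155, 1198 and 1417 CPM in vehicle. The groups did not overlap, at a background of 7.87% of rows lower without overlap. Its log2 fold change of −0.55 ± 0.14 missed the threshold (adjusted p = 0.0642, edgeR) where 0.543% of rows passed and 0.211% did so in the lower direction. It passed with the DESeq2 Wald test (adjusted p = 0.00768), halved counts (0.0315, edgeR), all 18 libraries in 1 fit (0.0263, edgeR) and a replicate block (0.0494, edgeR). It did not pass with DESeq2 size factors, without the filter on low counts, with only the compared groups, or when any 1 library was left out. In those fits the adjusted p ran up to 0.363 (edgeR). The Ccne2 row stood at 498, 372 and 573 CPM in DENSpm and overlapped vehicle (−0.22 ± 0.17, adjusted p = 0.671, edgeR). Without DENSpm replicate 2 the Ccne2 row stood at −0.07 ± 0.17 (adjusted p = 0.955, edgeR) and the Ccna2 row at −0.48 ± 0.14 (adjusted p = 0.105, edgeR).

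With cytokines, the Ccna2 row was the member that passed between DENSpm and vehicle, where 1.33% of rows passed and 0.754% did so in the lower direction. It had 862, 1054 and 1194 CPM in DENSpm with cytokines, against 1541, 1581 and 1593 CPM in vehicle with cytokines, without overlap, as for 9.05% of rows in that direction. It fell by 0.60 ± 0.14 on the log2 scale (adjusted p = 0.0257, edgeR). The call was lost when any 1 library was left out, apart from replicate 3 of DENSpm with cytokines, while the fold change stayed between −0.69 and −0.50. The Ints8 row had 5182, 6280 and 4753 CPM in DENSpm with cytokines, against 6359, 6621 and 6470 CPM in vehicle with cytokines (−0.26 ± 0.15, adjusted p = 0.486, edgeR). The Exosc9 row had 4840, 4202 and 4792 CPM in DENSpm with cytokines, against 4602, 4116 and 4419 CPM in vehicle with cytokines. Those groups overlapped, with a log2 fold change of 0.08 ± 0.15 (adjusted p = 0.897, edgeR; 95% interval −0.21 to 0.37). For the Ccne2 row the log2 fold change was −0.28 ± 0.17 (adjusted p = 0.511, edgeR).

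Cytokines in DENSpm-treated cells lowered the Ints8 row, which fell by 0.73 ± 0.15 on the log2 scale (adjusted p = 0.00108, edgeR; 0.90 ± 0.12 without DENSpm replicate 2), the 1 row of the 4 to pass where 7.42% of rows did and 2.65% fell. The 3 libraries with cytokines were below the 3 without, as for 9.56% of rows. The Exosc9 row did not pass with all libraries (−0.25 ± 0.15, adjusted p = 0.405, edgeR) and fell by 0.47 ± 0.12 (adjusted p = 0.00734, edgeR) without DENSpm replicate 2. The Ccna2 row stood at 0.27 ± 0.14 (adjusted p = 0.314, edgeR) and the Ccne2 row at 0.12 ± 0.17 (adjusted p = 0.798, edgeR); without DENSpm replicate 2 they stood at 0.20 ± 0.14 and −0.04 ± 0.17. The difference between the cytokine response in DENSpm and that in vehicle was 0.08 ± 0.21 for the Ints8 row and 0.30 ± 0.21 for the Exosc9 row, with adjusted p-values of 0.996 and 0.990 in edgeR. It was −0.05 ± 0.20 for the Ccna2 row and −0.06 ± 0.23 for the Ccne2 row (adjusted p = 0.996 each, edgeR). Without DENSpm replicate 2 it was −0.09 ± 0.17 for the Ints8 row, 0.08 ± 0.16 for the Exosc9 row, −0.13 ± 0.19 for the Ccna2 row and −0.22 ± 0.22 for the Ccne2 row.

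Set directly against each other, DENSpm cells stood above DFMO cells in the Ints8 row by 1.23 ± 0.14 on the log2 scale without cytokines and by 1.41 ± 0.14 with them. For the Exosc9 row the values were 0.43 ± 0.13 and 0.86 ± 0.13. For the Ccne2 row they were −0.03 ± 0.16 and −0.09 ± 0.16, and for the Ccna2 row −0.10 ± 0.14 and −0.26 ± 0.13. Without DENSpm replicate 2 the values without cytokines were 1.39 ± 0.12 for the Ints8 row, 0.64 ± 0.11 for the Exosc9 row, 0.12 ± 0.17 for the Ccne2 row and −0.03 ± 0.14 for the Ccna2 row. These 2 comparisons were in view when the rows were chosen and carry no test; 11.2% and 10.2% of all rows passed in them. DFMO and DENSpm were each used at 1 dose and 1 time.

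**Figure D3:**
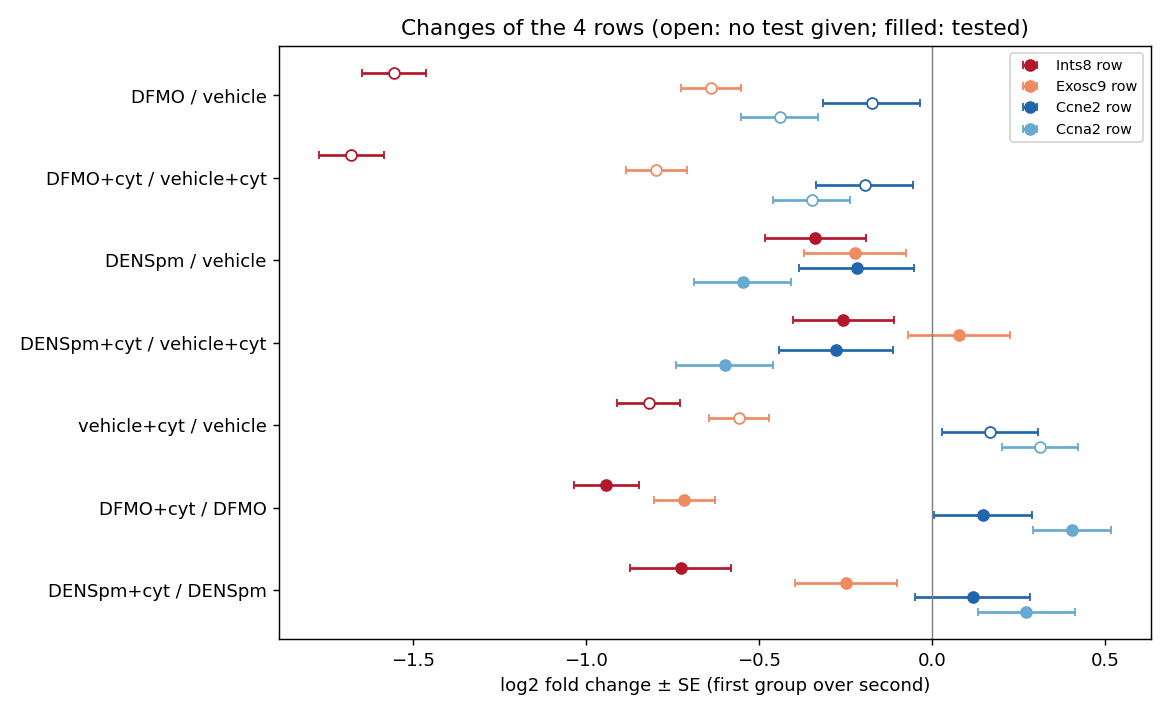
Log2 fold change (x axis, ± SE from edgeR) of the 4 rows in 7 comparisons, the first-named group over the second; open points carry no test and filled points were tested. The Ints8 and Exosc9 rows lie left of 0 for DFMO and for cytokines, and the Ccna2 row lies left of 0 for both drugs and right of 0 for cytokines.

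The order of the groups differed between the rows. From low to high, the Ints8 row ran DFMO with cytokines, DFMO, DENSpm with cytokines, vehicle with cytokines, DENSpm and vehicle; of these neighbours, DENSpm and vehicle overlapped, and the others did not. The Exosc9 row ran DFMO with cytokines (2535 ± 127 CPM, SD, n = 3), DFMO (4077 ± 70.2), vehicle with cytokines (4379 ± 246), DENSpm with cytokines (4611 ± 355), DENSpm (5484 ± 1527) and vehicle (6426 ± 615). Of these neighbours, DFMO with cytokines and DFMO were the 1 pair that did not overlap. For the Ccne2 row all neighbours overlapped. The Ccna2 row was lowest in DENSpm (857 ± 88.9 CPM) and highest in vehicle with cytokines (1572 ± 27.4), which stood clear of vehicle (1257 ± 140).

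Ratios of raw counts within a library do not depend on library scaling. The Ints8 row held 7.84 ± 0.91 times the counts of the Ccne2 row in DFMO and 20.4 ± 2.96 times in vehicle (SD, n = 3 each). With cytokines the ratio was 3.66 ± 0.35 in DFMO and 10.4 ± 1.46 in vehicle. In DENSpm it was 10.4 ± 1.81 with cytokines and 18.5 ± 1.36 without them. The ratio of the Exosc9 row to the Ccna2 row was 4.44 ± 0.21 in DFMO, overlapping the 5.18 ± 0.97 of vehicle. With cytokines this ratio was 2.05 ± 0.10 in DFMO, below the 2.79 ± 0.19 of vehicle without overlap.

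The balance between the row opposite Ccne2 and the row opposite Ccna2 also differed. The Ints8 row held 0.902 to 0.965 times the counts of the Exosc9 row in the DFMO libraries, against 1.56 to 2.15 times in the vehicle libraries. With cytokines the range was 0.712 to 0.944 in DFMO, against 1.38 to 1.61 in vehicle. The DENSpm libraries ran from 1.35 to 1.82 and overlapped vehicle. Those of DENSpm with cytokines ran from 0.992 to 1.49, with 2 of the 3 below the range of vehicle with cytokines. These are descriptions, as the DFMO contrasts chose the rows.

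**Figure D4:**
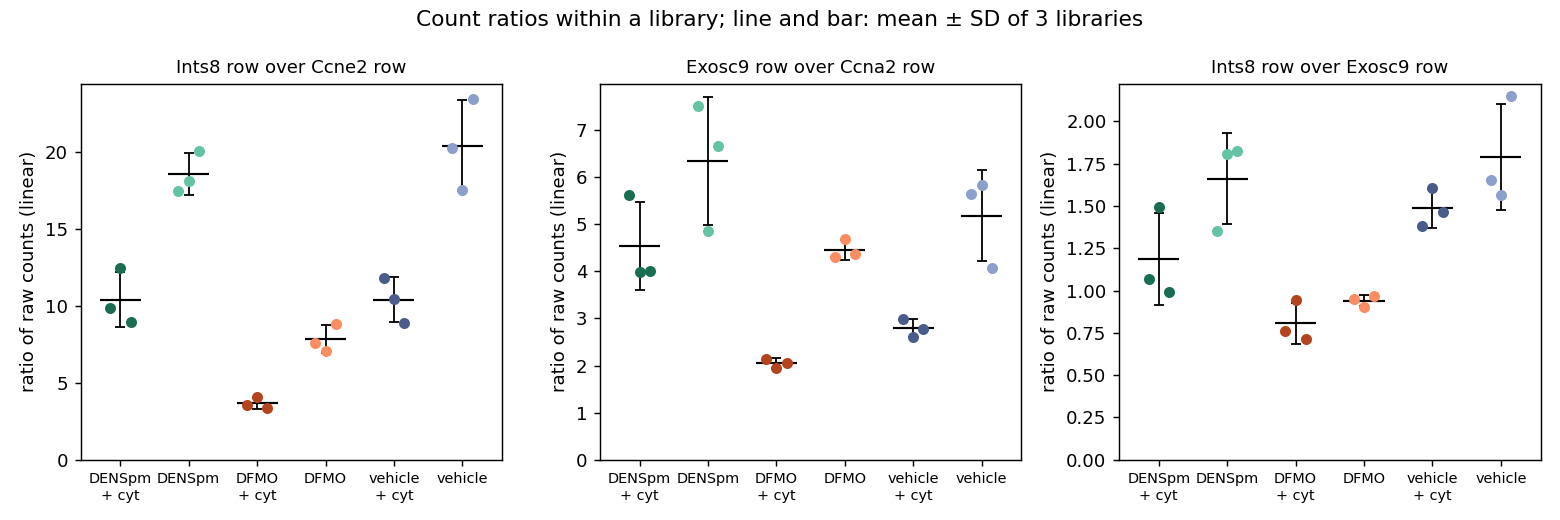
Ratios of raw counts within each library (linear y axis) for the Ints8 row over the Ccne2 row, the Exosc9 row over the Ccna2 row, and the Ints8 row over the Exosc9 row; points are libraries in the 6 groups, the line is the mean and the bar the SD of 3. The Ints8 to Exosc9 ratio is below 1 in all 6 DFMO libraries and above 1 in all 6 vehicle libraries.

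Over the 18 libraries, Pearson's r of log2(CPM + 1) was 0.917 between the Ints8 and Exosc9 rows and 0.718 between the Ccne2 and Ccna2 rows. Between a row and the row opposite it, r was 0.08 for Ints8 and Ccne2 and −0.11 for Exosc9 and Ccna2. These values mostly carry the 6 groups: for deviations from the group means, r was 0.428, 0.329, 0.539 and 0.223 in the same order. The libraries share their depth and scaling, and the values are descriptions.

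The 4 rows most like the Ints8 row, of 2630 with at least 20 CPM, were Tmem54, Kdm1b, Aifm2 and 1700027H10Rik (r = 0.934, 0.928, 0.900 and 0.892 over 18 libraries). Kdm1b lies opposite Dek, a chromatin protein gene, and averaged 3242 CPM in DFMO and 6925 CPM in vehicle. Tmem54 lies opposite Hpca, and Aifm2 opposite H2afy2, which encodes a macroH2A histone. The 5 most like the Exosc9 row were 1700027H10Rik, Gm7457, Acsm3, Fbxl13 and Ilkap (r = 0.899, 0.888, 0.879, 0.864 and 0.862). Acsm3 lies opposite Eri2 and averaged 1164 CPM in DFMO and 1554 CPM in vehicle.

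Rows opposite other cell cycle genes were lower in DFMO as well. Across 7 lists (G1/S cyclins and kinases, kinase inhibitors and pocket proteins, E2F factors, cyclin degradation, origin licensing and firing, replication fork and nucleotide supply, and G2/M), the 4 cyclin-locus rows aside, 17 rows opposite a listed gene were tested. In DFMO against vehicle 7 of the 17 fell and 0 rose, with a median log2 fold change of −0.66. Of all rows, 6.54% fell and 8.06% rose, with a median of 0. In DFMO with cytokines against vehicle with cytokines 7 of 17 fell and 0 rose, with a median of −0.68, against 5.78% of all rows lower and 5.27% higher. The lists were made with earlier results of these libraries known.

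In DFMO against vehicle 3 of the 5 licensing and firing rows fell. The Mfsd3 row, opposite the helicase gene Recql4, averaged 119 ± 19.7 CPM in DFMO and 441 ± 30.0 CPM in vehicle (SD, n = 3 each). The Gse1 row, opposite Gins2, a subunit of the replicative helicase, and 1700016A09Rik, had 348 ± 30.2 CPM in DFMO and 624 ± 67.5 CPM in vehicle (log2 fold change −0.82 ± 0.15, adjusted p = 4.36e-05, edgeR). The Acvr2a row, opposite Orc4, of the origin recognition complex, fell by 0.69 ± 0.17 (adjusted p = 0.00226, edgeR). The rows opposite Mcm7 and Orc2 did not pass. Of the 5 fork rows 3 fell: Wsb2, opposite the clamp loader gene Rfc5 (−1.93 ± 0.49, adjusted p = 0.00384, edgeR), Ubxn6, opposite the chromatin assembly gene Chaf1a (−0.77 ± 0.15, adjusted p = 1.86e-04, edgeR), and Eif4a2, opposite the clamp loader gene Rfc4 (−0.66 ± 0.17, adjusted p = 0.00402, edgeR, and 0.0570 without vehicle replicate 3). The Wsb2 row rests on 24 counts in the 3 DFMO libraries and 111 in the 3 vehicle libraries.

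The 1 G2/M row tested by its opposite gene, Paqr4, opposite the CDK1-inhibiting kinase gene Pkmyt1, fell to 395 ± 45.4 CPM in DFMO, against 837 ± 117 CPM in vehicle (−1.07 ± 0.15, adjusted p = 4.84e-07, edgeR). With cytokines present the Gse1 (−1.09 ± 0.15), Mfsd3 (−1.79 ± 0.25), Ubxn6 (−0.92 ± 0.16), Eif4a2 (−1.16 ± 0.17) and Paqr4 (−1.06 ± 0.15) rows fell again, with adjusted p-values of at most 2.54e-05 in edgeR. The Acvr2a row (−0.49 ± 0.16, adjusted p = 0.0404, edgeR) and the Bysl row, opposite the cyclin D3 gene Ccnd3 (−0.55 ± 0.15, adjusted p = 0.00852, edgeR), fell too. The Acvr2a call was lost without any 1 library of vehicle with cytokines or without replicate 1 of DFMO with cytokines. It was also lost without the filter on low counts and with all 18 libraries in 1 fit (adjusted p up to 0.337, edgeR). The Bysl call was lost without replicate 3 of vehicle with cytokines or replicate 2 of DFMO with cytokines (adjusted p up to 0.0998, edgeR). The rows opposite the kinase genes Cdk2 (Pmel) and Cdk4 (Tspan31) did not pass in any comparison.

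Read by their own symbol, 29 rows of the 7 lists were tested, and in DFMO against vehicle 3 fell and 1 rose, with a median of −0.09. These 4 of 29 stand against 14.6% of all rows, and with cytokines 2 of 29 passed, against 11.1% of all rows. The counts do not set these rows apart from the rest. Rows taken by own symbol may not hold the reads of the genes they are named for. The Nusap1 row, named for a spindle protein gene, fell by 1.01 ± 0.20 (adjusted p = 2.65e-04, edgeR). With cytokines it fell by 1.56 ± 0.21 (adjusted p = 2.99e-07, edgeR). It lies opposite Oip5, a centromere protein gene. The Gmnn row, named for the licensing inhibitor geminin, held 13 counts in DFMO and 73 in vehicle. The Orc4 row, opposite Acvr2a, fell by 0.54 ± 0.17, while the Orc1 row rose by 1.37 ± 0.42. Adjusted p-values of the Gmnn, Orc4 and Orc1 rows were 0.0272, 0.0211 and 0.0206 in edgeR. The Gmnn call was lost without the filter on low counts or without any 1 library of the 2 groups apart from DFMO replicate 3. The Orc4 call was lost without vehicle replicate 1 or 2 or DFMO replicate 2 or 3. The Orc1 call was lost without vehicle replicate 1 or 3 or DFMO replicate 1. With all 18 libraries in 1 fit the Orc4 and Orc1 calls were lost, and the Orc1 call also without the filter on low counts. The row named for the proliferation marker Mki67 held 0 counts in DFMO with cytokines, 21 in DFMO and 22 in vehicle with cytokines, over 3 libraries each. It held 157 counts in all 18 libraries together and, taken by its own symbol, may not hold the reads of that gene.

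In DENSpm against vehicle, 0 of the 19 rows opposite a listed gene passed in edgeR, and 0 in DESeq2, with 3 at an unadjusted p under 0.05. With cytokines 0 of 19 passed in edgeR and 1 in DESeq2, with 1 at an unadjusted p under 0.05. In that comparison the Acvr2a row, opposite Orc4, stood at −0.61 ± 0.17 (adjusted p = 0.0567, edgeR). Of all rows 0.543% passed without cytokines and 1.33% with them, so the counts of 0 do not set these rows apart from the rest. The Gse1 row stood at −0.27 ± 0.15 in DENSpm against vehicle (adjusted p = 0.505, edgeR), the Paqr4 row at 0.08 ± 0.16 (adjusted p = 0.905, edgeR) and the Ubxn6 row at 0.36 ± 0.15 (adjusted p = 0.330, edgeR). Against DFMO, DENSpm was higher in 6 of 21 such rows, where 5.84% of all rows were higher, and with cytokines in 5 of 21, where 5.36% were. The 6 included Paqr4 (1.16 ± 0.17), Ubxn6 (1.14 ± 0.16), Eif4a2 (1.15 ± 0.19) and Gse1 (0.56 ± 0.15), with adjusted p-values of at most 0.0124 in edgeR. The Gse1 call was lost without DFMO replicate 2 or 3 or without the filter on low counts. These comparisons share the DFMO libraries with those of DFMO against vehicle.

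**Figure D5:**
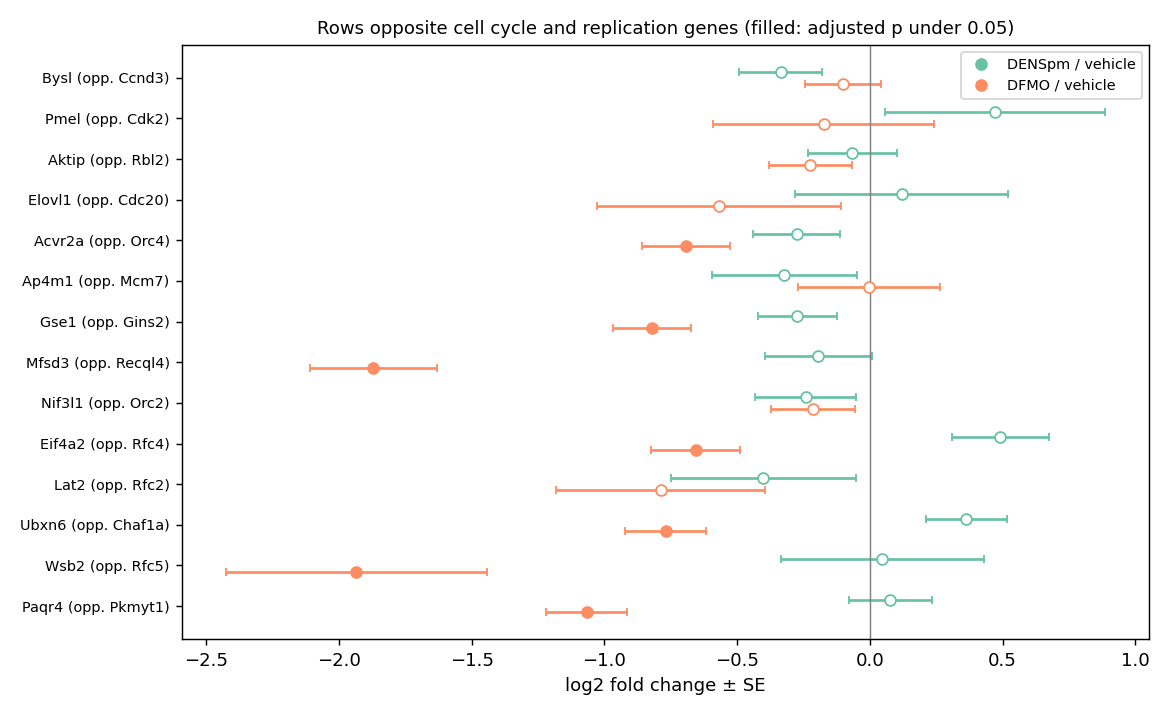
Log2 fold change (x axis, ± SE from edgeR) of 14 rows with at least 50 CPM that lie opposite listed cell cycle and replication genes, for DENSpm over vehicle and DFMO over vehicle; filled points have an adjusted p under 0.05. The 7 filled points are all for DFMO and all left of 0, and both comparisons share the 3 vehicle libraries.

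Cytokines changed 1 of 17 rows opposite a listed gene in vehicle, 1 of 17 in DFMO-treated cells and 1 of 19 in DENSpm-treated cells. By own symbol they changed 2 of 29, 4 of 29 and 2 of 37 rows. Of all rows 9.90%, 13.1% and 7.42% passed in the same order, and the counts do not set these rows apart from the rest. In vehicle with cytokines against vehicle, 1 of 17 rows opposite a listed gene passed, Aktip, opposite the pocket protein gene Rbl2 (−0.64 ± 0.16, adjusted p = 0.00386, edgeR, and 0.0530 without vehicle replicate 2), against 3.48% of all rows lower, and 0 of the 5 licensing and 0 of the 5 fork rows did. Over the 17 rows DESeq2 called 1, and 3 had an unadjusted p under 0.05. By own symbol 2 rows fell, which may not hold the reads of the genes they are named for. They were the Aurka row, named for a mitotic kinase gene (−1.68 ± 0.35, adjusted p = 4.83e-04, edgeR), and the Pkmyt1 row, opposite Paqr4 (−0.61 ± 0.15, adjusted p = 0.00283, edgeR). In DFMO-treated cells cytokines lowered Bysl (−0.64 ± 0.15, adjusted p = 0.00142, edgeR) and Aurka (−1.17 ± 0.34, adjusted p = 0.0150, edgeR), the second call being lost without DFMO replicate 2 or 3 or without replicate 1 or 3 of DFMO with cytokines. By own symbol the Mki67 row (0 counts in DFMO with cytokines, 21 in DFMO, adjusted p = 0.0161, edgeR) and the Pkmyt1 row (−0.45 ± 0.15, adjusted p = 0.0424, edgeR) fell as well. The Pkmyt1 call was lost without any 1 library of the 2 groups apart from DFMO replicate 3. It was also lost without the filter on low counts, with only the compared groups, with all 18 libraries in 1 fit and with a replicate block. The Orc3 row, named for a gene of the origin recognition complex, rose (0.50 ± 0.12, adjusted p = 0.00231, edgeR). In DENSpm-treated cells cytokines lowered the Aktip row (−0.63 ± 0.17, adjusted p = 0.0184, edgeR) and the Aurka row (−1.87 ± 0.44, adjusted p = 0.00555, edgeR). The Aktip call was lost without DENSpm replicate 1, without replicate 2 or 3 of DENSpm with cytokines, or without the filter on low counts. The Cdk6 row, opposite Gm17590, rose to 75 counts in DENSpm with cytokines, against 1 count in DENSpm (adjusted p = 6.47e-04, edgeR). The Cdk6 row also held 13 counts in DFMO with cytokines, against 0 in DFMO, and 36 in vehicle with cytokines, against 0 in vehicle.

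Few other rows listed for the complexes that Ints8 and Exosc9 belong to passed the filter. Those taken by own symbol may not hold the reads of the genes they are named for. Of 3 other Integrator rows tested by symbol, the Ints2 row, opposite Brip1os, fell with DFMO (−0.75 ± 0.13, adjusted p = 3.52e-05, edgeR). With cytokines present the Ints2 row fell again with DFMO (−1.12 ± 0.13, adjusted p = 8.8e-09, edgeR). It rose with cytokines in vehicle (0.57 ± 0.13, adjusted p = 0.00118, edgeR). The Brip1os row, opposite Ints2 and Med13, averaged 2429 CPM in DFMO and 2211 CPM in vehicle, with overlap. With cytokines in vehicle the Brip1os row rose as well (0.62 ± 0.10, adjusted p = 9.95e-06, edgeR). The Ints5 row fell with cytokines in vehicle (−1.20 ± 0.38, adjusted p = 0.0338, edgeR). That call was lost without vehicle replicate 1, 2 or 3, replicate 3 of vehicle with cytokines, or the filter on low counts (adjusted p up to 0.241, edgeR). The Ints5 row also fell with cytokines in DFMO-treated cells (−1.94 ± 0.40, adjusted p = 3.43e-04, edgeR) and in DENSpm-treated cells (−1.21 ± 0.29, adjusted p = 0.00555, edgeR). These calls held under all alternatives run. The exosome list also held Skiv2l2, which encodes a helicase cofactor of the exosome and not a subunit. Of 4 other rows of that list, Skiv2l2 (0.95 ± 0.19, adjusted p = 3.14e-04, edgeR) and Exosc4 (0.71 ± 0.21, adjusted p = 0.0136, edgeR) rose with DFMO. The Exosc4 call was lost without vehicle replicate 2 or 3 or DFMO replicate 2, and with all 18 libraries in 1 fit. The row opposite the exosome nuclease gene Dis3, Pibf1, fell with DFMO (−1.28 ± 0.33, adjusted p = 0.00404, edgeR, and 0.135 without vehicle replicate 1).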

How the data were processed

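RNA of MIN6 cells was sequenced in 18 libraries from a strand-specific, poly(A) TruSeq protocol, per the labels' protocols. The authors deposited raw counts of reads per gene, made with HTSeq on mm10, per the submitters' processing notes. FastQC and DESeq2 are named there too, without roles; aligner, annotation and strand setting were not given in the sources used here. A DFMO table and a DENSpm table share 6 drug-free libraries. The deposited normalised values were not used.

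Rows were tested on the counts in R 4.3.3 with the robust quasi-likelihood test of edgeR 4.0.16 (TMM factors, filterByExpr, a mean per group) within the table holding the groups, and DENSpm against DFMO in all 18 libraries. This left 3302, 3315 and 3713 rows. Adjusted p-values cover all rows of a fit, with a threshold of 0.05. The code was tested on simulated data with known fold changes, and standard errors were taken from F and the fold change. Exon overlaps used GENCODE vM21 (GRCm38).

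The members, the lists and the tests were chosen with earlier results of these data known. Named list rows have an adjusted p under 0.05 and at least 5 CPM, up to 4 per list and direction, and rows given beside them that did not pass were picked afterwards. Some named items are not reported here. Same-group libraries differed by 3.43 to 10.7 times the sampling variance (chi-square per degree of freedom), so no library was a copy of another of its group. Libraries of different groups were not compared in this way. The number of counts limits precision: a row of few counts carries a large counting error. The 95% intervals were taken from the SE with normal quantiles.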

Additional observations from a re-analysis of the deposited data

How the results depend on the processing

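The 44 log2 fold changes of the 4 rows were recomputed under DESeq2 size factors, no filter on low counts, the DESeq2 Wald test (1.42.0), halved counts (a read pair may have added 2), only the compared groups, all 18 libraries, a replicate block, and without each library. Of 604 values, 592 kept their side of the threshold or, where untested, moved by less than the spread between replicates; 18 of these, of results that were not called, changed sign, and no called value did; the cause of the 12 changes was not tested. The Ccna2 row in DENSpm against vehicle passed with the DESeq2 Wald test (−0.55, adjusted p = 0.00768), halved counts (−0.56, adjusted p = 0.0315) and all 18 libraries (−0.56, adjusted p = 0.0263). The replicate block aside, this row did not pass there under the other alternatives (adjusted p up to 0.363, edgeR). Its log2 fold change in DENSpm with cytokines against vehicle with cytokines did not pass without the filter (−0.57, adjusted p = 0.0694), and ran from −0.69 to −0.50 without single libraries. Without single libraries the Ccna2 row in DFMO with cytokines against DFMO ran from 0.38 to 0.50, and the Exosc9 row in DENSpm with cytokines against DENSpm from −0.47 to −0.12.

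Replicate numbers did not pair the libraries: deviations from group means correlated at −0.06 to 0.10 over 45 same-numbered pairs, and 8 of 18 libraries matched best with their own number. With the replicate block the Ccna2 row in DENSpm against vehicle passed (−0.54, adjusted p = 0.0494), and the block changed no other call of the 4 rows.

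Counts of rows called in DENSpm against vehicle (18) were 30 without the filter, 48 in DESeq2, 31 with halved counts, 4 with only the compared groups, and 2 to 32 without single libraries. With cytokines (44) they were 93 in DESeq2, 67 with halved counts, 74 with only the compared groups and 7 to 21 without single libraries. The DFMO interaction (14) gave 30 in DESeq2, 4 with all 18 libraries and as few as 5 without single libraries. DENSpm against DFMO (414) gave 269 without DFMO replicate 2. Of 99 calls of list rows, none reversed and 65 held under all alternatives run, which were chosen after seeing the data; 109 of the 142 lost values came from leaving out a library.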
